A study of Mus musculus with 15 samples.

Results

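The cytosolic ribosome of the mouse is built on ribosomal RNA by a set of ribosomal proteins, and the genes that encode them were followed here in whole kidney. Genes were taken by name: protein-coding genes called Rps or Rpl with a number, Rpsa and the stalk genes Rplp0, Rplp1 and Rplp2, without the S6 kinase genes. This gave 81 genes, 32 of the small and 49 of the large subunit, of 26823 named genes. All 81 passed the filter on low counts, among 15789 genes tested. Rpl39l also has such a name, but it stood in only 1 of the deposited tables with 2 counts in total and was left out.

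RNA was sequenced from kidneys of 15 mice aged 4 months, in 3 groups of 5. WT mice received PBS. Hyp mice, which carry the Hyp-Duk disruption of Phex (named Phex_KO in the labels) and have excess of the phosphate-lowering hormone FGF23, also received PBS. The cFGF23-Hyp mice were Hyp mice given, when 4 weeks old, 1 intravenous dose of an AAV vector (1e12 vector genomes) that encodes cFGF23, the carboxy-terminal part of FGF23, and were killed 3 months later. The design text counts 5 mice per group, and the labels do not name the promoter of the vector. Whole kidney mixes many cell types, so fewer cells of a type and less RNA per cell cannot be told apart.

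Ribosomal protein mRNAs carry a 5′ terminal oligopyrimidine (TOP) tract, a run of C and T bases at the very start of the transcript, through which mTORC1 and the RNA-binding protein LARP1 control their translation. Changes in ribosomal protein synthesis can therefore occur with little change in mRNA level. The mouse genome also holds many processed pseudogenes, intronless copies of these short mRNAs, whose sequences can be almost the same as the parent gene. Promoter entries of RefSeq (build GRCm38.p6) matched 61 of the 81 genes. Of these, 32 (52.5%) had at least 8 unbroken C or T on the sense strand within the 25 bases on either side of the listed start. Among all 27025 genes in that collection the share was 22.3%. The letters CCGGAAG, on either strand of the 300 bases listed per start, occurred in 25 of the 61 genes (41.0%) and in 9.93% of all genes. The runs of 6 genes whose values are given below are shown here, 30 bases each, with the run in capitals. Runs shown had only to reach into that window. Those of Rps7 and Rpl26 start 22 and 21 bases after the listed start and lie mostly outside it.
Rps6, chr4:86857349-86857378, minus strand: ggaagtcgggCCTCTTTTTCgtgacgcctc
Rps7, chr12:28635911-28635940, minus strand: ctgtccccaCCTCTTTTCTTCCgccacccg
Rpl15, chr14:18270968-18270997, minus strand: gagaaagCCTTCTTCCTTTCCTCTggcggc
Rpl26, chr11:68901579-68901608, plus strand: gcgtgtagTTCTCTTTCCTTTTgcggccat
Rplp2, chr7:141447636-141447665, plus strand: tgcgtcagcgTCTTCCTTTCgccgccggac
Rpl22l1, chr3:28805499-28805528, plus strand: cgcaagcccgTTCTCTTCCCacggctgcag
Such a match describes the letters at an annotated start, and the files hold no measurement of the start sites used in these kidneys.

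Library totals ran from 13083190 counts in cFGF23-Hyp_3 to 21829906 in WT_4. Phex itself could not check the genotype labels, since no library, of WT or Hyp mice, had more than 3 counts of it. The library titled WT_5 carries Hyp and Phex_KO in its other labels and was kept in WT by its title. Summed proximal tubule markers were present throughout, at 17800 to 20800 CPM (counts scaled to equal library size) in WT, 15500 to 17900 CPM in Hyp and 16300 to 19600 CPM in cFGF23-Hyp. The 15 leukocyte markers summed to 93.9 to 120 CPM in WT, 141 to 192 CPM in Hyp and 96.8 to 143 CPM in cFGF23-Hyp, with none at 0 in all libraries of a group. Only 5 of the 15 passed the filter, and most of the sum was Csf1r and Jchain. Csf1r was at 71.4 to 92.8 CPM in WT and 83.9 to 98.8 CPM in Hyp, and Jchain at 7.99 to 19.1 CPM and 27.0 to 76.5 CPM. The sum is therefore not a measure of leukocytes in general. The hepatocyte list was mostly Ttr, the transthyretin gene, so its sum is not a measure of a cell type, and Alb stayed at 3.13 to 39.0 CPM. In WT, Ttr reached 463 CPM in WT_5 (the library with conflicting labels) and 44.3 to 79.4 CPM in the others, while Hyp libraries had 917 to 1853 CPM. It was at 55.5 CPM in cFGF23-Hyp_5, within the range of those other WT libraries, and at 695 to 1263 CPM in the other cFGF23-Hyp libraries. Summed adipocyte markers were highest in cFGF23-Hyp_3 (971 CPM, against 69.9 to 221 CPM in the rest of its group) and Hyp_4 (808 CPM). Summed adrenal cortex markers were at 1110 CPM in Hyp_4 and 4.17 to 12.9 CPM elsewhere. The part of these cells in the ribosomal protein values was not tested.

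The ribosomal protein genes together took 1.07% to 1.31% of the counts in 14 libraries and 1.86% in cFGF23-Hyp_3. That library stood apart throughout. For each gene, the deviation of a library was taken as its log2 CPM less that gene's 15-library mean. The median deviation of the 81 genes was 0.71 in cFGF23-Hyp_3 and between -0.20 (cFGF23-Hyp_2) and 0.20 (WT_4) in the other 14. cFGF23-Hyp_3 held the highest value of 71 of the 81 genes, while it held the highest value of 26% of all genes tested. Small and large subunit genes deviated alike there, with medians of 0.75 and 0.67. Of the 10 others, Rpl29 (-1.87), Rpl7a (-1.23), Rps10 (-0.58), Rpl23a (-0.41), Rpl21 (-0.37) and Rpl3l (-0.35) deviated downwards there. Rps18 (0.04), Rpl35a (0.23), Rps2 (0.50) and Rps29 (0.55) deviated upwards but had a higher library. At the other end Rpl26 deviated by 2.24, Rps27a by 1.73 and Rplp1 by 1.28. cFGF23-Hyp_3 also had the fewest genes detected (20444, against 21492 to 23169) and the lowest share of counts from mitochondrial genes (6.64%, against 8.68% to 11.3%). The part of these properties in its ribosomal protein level was not tested.

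**Figure D1:**
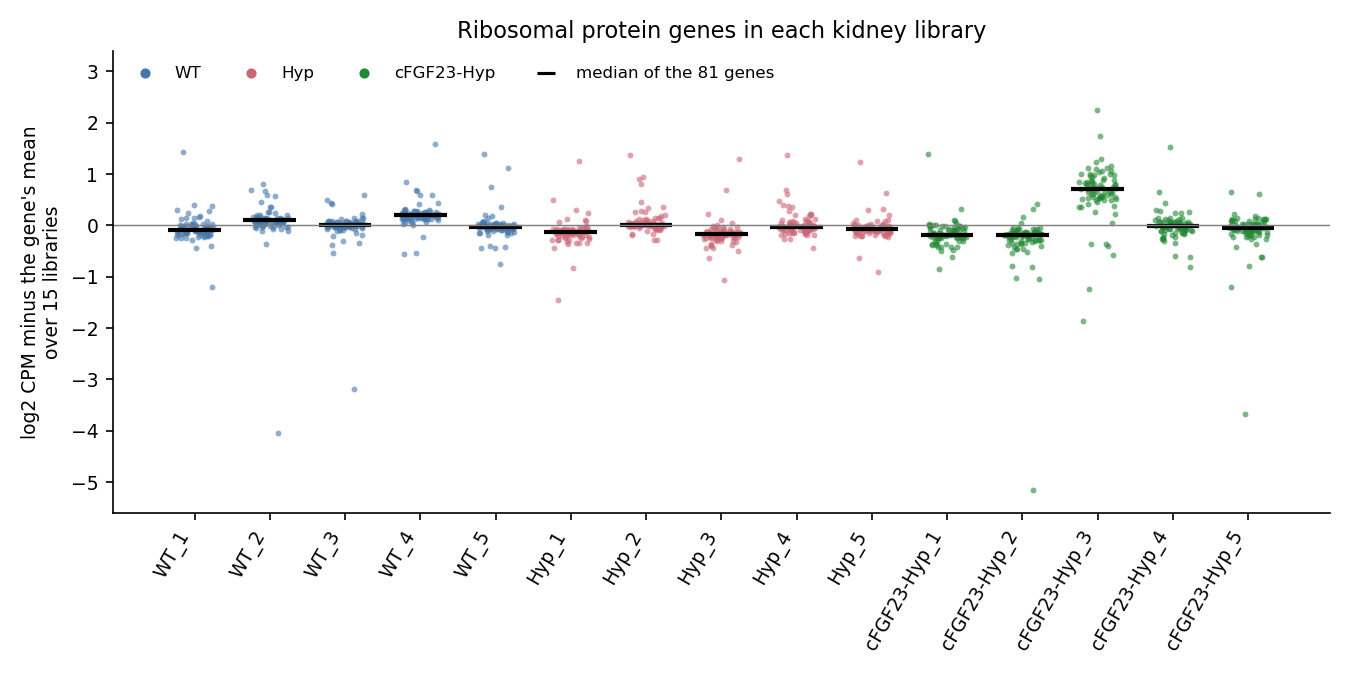
Each point is 1 of the 81 ribosomal protein genes and the vertical axis is its log2 CPM in a library less its 15-library mean. Black lines are medians. The median lies at 0.71 in cFGF23-Hyp_3 and from -0.20 to 0.20 elsewhere, and the lowest points in WT_2, WT_3, cFGF23-Hyp_2 and cFGF23-Hyp_5 are Rpl26.

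Gene length moved with this pattern. The deposited gene length had a median of 1781 bases in the ribosomal protein genes (383 to 6270) and 4033 bases in all genes tested. Their coding sequences in GENCODE release M21 are shorter still, at 141 to 1260 bases with a median of 471. In cFGF23-Hyp_3 the deviation of all tested genes was negatively related to length (Spearman's rho of -0.40 across genes, which are not independent). In the other libraries rho ran from -0.22 (WT_4) to 0.23 (Hyp_3). All tested genes were divided by length into 10 classes of about equal size. The shortest class, up to 1306 bases, had a median deviation of 0.54 in cFGF23-Hyp_3, and the longest class -0.25. Within these classes of deposited length, 71 of the 81 ribosomal protein genes exceeded the median of all genes in their own class. The 20 in the shortest class had a median of 0.81. The 11 between 2687 and 3334 bases had a median of 0.75, where all genes of that class had 0.13. Across the 81 genes themselves rho with length was -0.14. With the length trend of each library removed, their median deviation in cFGF23-Hyp_3 was 0.37, against -0.15 to 0.14 in the other libraries. Deposited length can far exceed the coding sequence, with 6270 against 393 bases for Rps15a and 3020 against 348 for Rpl30. Whether these genes deviated beyond the length of their mRNAs was therefore not tested. Among other genes of protein synthesis in cFGF23-Hyp_3, the 77 mitochondrial ribosomal protein genes had a median deviation of 0.65. The 21 translation factor genes with known TOP transcripts had 0.30, and the 90 ribosome biogenesis genes 0.03.

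**Figure D2:**
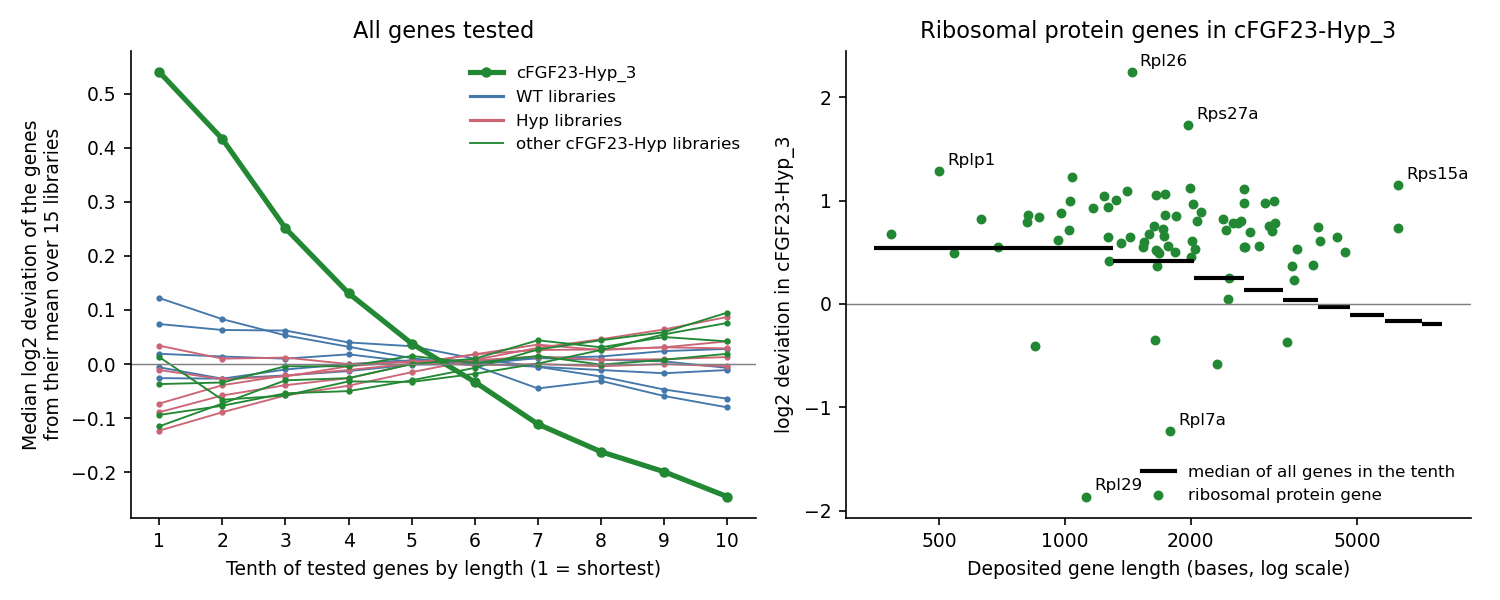
Left, the median log2 deviation of all tested genes in each of 10 classes of gene length, 1 line per library. cFGF23-Hyp_3 falls from 0.54 to -0.25, and the other 14 libraries stay much closer to 0. Right, the deviation of each ribosomal protein gene in cFGF23-Hyp_3 against its deposited length on a log axis. Black bars are the medians of all genes in each class, except the longest, which lies beyond the axis, and most of the 81 genes lie above them.

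Levels within the set were compared per length, as CPM per kilobase of deposited gene length averaged over the 15 libraries. The median was 72.2 CPM per kilobase, with 28 genes above 100 and 10 below 10. The highest were Rplp1 (521), which forms the flexible stalk that recruits elongation factors, Rps15 (324), Rpl4 (267) and Rpl41 (267), which encodes the smallest ribosomal protein. This order is by deposited length, which was 499 bases for Rplp1 and 1168 for Rpl41, against coding sequences of 345 and 141 bases. The lowest were Rpl21 (0.47), Rpl29 (0.62), Rpl24 (0.93) and Rpl3l (0.96). Rpl3l is a paralog of Rpl3 known from heart and skeletal muscle, while Rpl21, Rpl29 and Rpl24 encode general proteins of the ribosome. The general forms stood above their paralogs in 3 pairs, with Rpl3 at 65.8, Rpl7 at 149 and Rpl22 at 42.2 CPM per kilobase against 0.96 for Rpl3l, 23.6 for Rpl7l1 and 10.6 for Rpl22l1. For Rps27l and Rps27 the order depended on the basis. Rps27l was at 107 and Rps27 at 67.7 CPM per kilobase, and with copies added 107 and 113. Per kilobase of coding sequence they were at 274 and 277. For Rpl21, Rpl29 and Rpl24, counts assigned to copies exceeded counts of the gene. Over the whole tables, 615 pseudogenes or predicted genes carried the protein name or gene name of 75 of the 81 genes, and in a library they held 15.1% to 17.7% of the counts of genes and copies together. In 10 of the 81 genes, including 8 of the 10 lowest per kilobase, the copies held more counts than the gene. Rpl29 had a mean of 0.70 CPM and its 20 copies 61.1 CPM together, most of it in Gm13841 (51.8 CPM). Rps2 had 14.2 CPM and its 48 copies 364 CPM, of which Rps2-ps10 held 217 CPM. The other genes outweighed by their copies were Rpl21, Rpl24, Rps10, Rps18, Rpl35a, Rpl30, Rpl17 and Rpl26. Levels of these genes relative to other genes are therefore uncertain. How the authors' counting treated reads with several matches is not given in the sources used here.

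**Figure D3:**
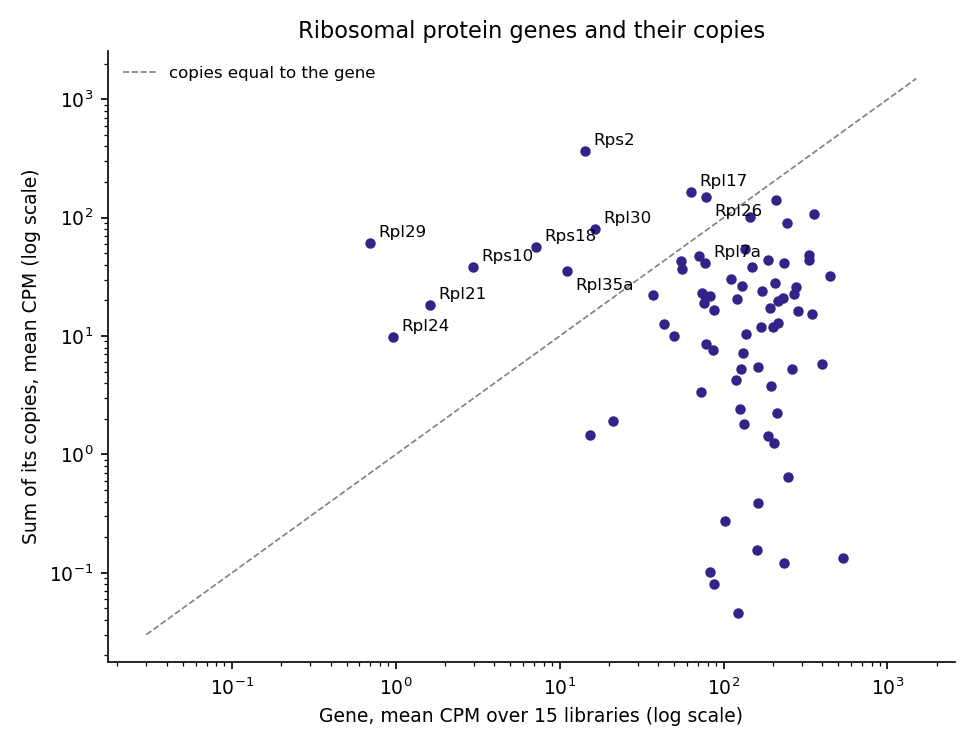
Each point is 1 of the 75 ribosomal protein genes with copies in the deposited tables, with the mean CPM of the gene and the mean summed CPM of its copies on log axes. Points above the dashed line have more counts in copies than in the gene. There are 10 of them, and Rpl29 (0.70 against 61.1 CPM) lies farthest above the line.

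The most variable member was Rpl26, a large subunit gene (ENSMUSG00000060938, chromosome 11, 68792409 to 68797815 as the deposited tables give it). In WT it was at 102, 2.17, 4.03, 113 and 98.9 CPM in replicates 1 to 5. In Hyp it was at 90.0, 97.3, 92.4, 97.9 and 89.6 CPM, and in cFGF23-Hyp at 99.0, 0.94, 180, 109 and 2.86 CPM. Rpl26 was thus nearly absent from the counts of WT_2, WT_3, cFGF23-Hyp_2 and cFGF23-Hyp_5 and evenly expressed in the others, apart from the high cFGF23-Hyp_3. Its copy Gm15772 on chromosome 5, a processed pseudogene, had the opposite pattern. Gm15772 was at 111, 245, 231, 131 and 112 CPM in WT, at 102, 112, 104, 115 and 94.1 CPM in Hyp, and at 110, 199, 203, 119 and 231 CPM in cFGF23-Hyp. The 4 libraries low in Rpl26 had 199 to 245 CPM of Gm15772, and all others except cFGF23-Hyp_3 had 94.1 to 131 CPM. With its 5 copies added, Rpl26 lay at 185 to 249 CPM in every library but cFGF23-Hyp_3, which had 385 CPM. The SD of log2 CPM within groups went from 2.56 to 0.23. This gene and its copy were singled out after their values were seen.

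**Figure D4:**
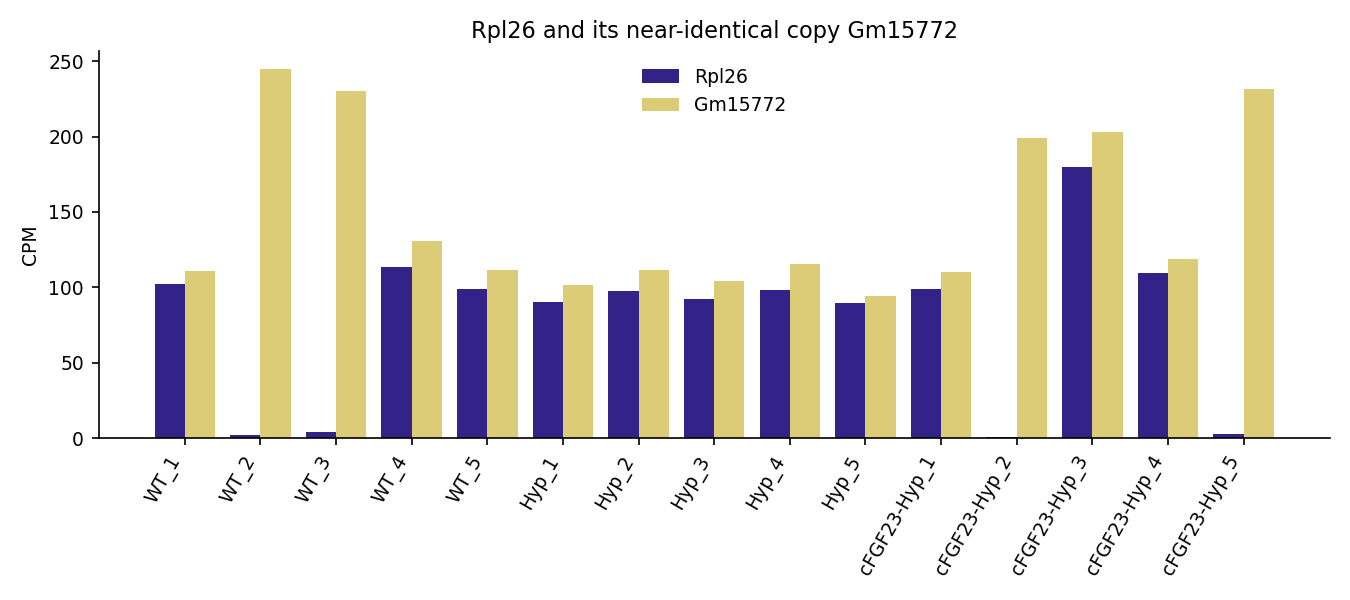
CPM of Rpl26 and of its near-identical copy Gm15772 in each of the 15 kidney libraries, as bars from 0. In WT_2, WT_3, cFGF23-Hyp_2 and cFGF23-Hyp_5 Rpl26 is at 0.94 to 4.03 CPM while Gm15772 is at 199 to 245 CPM.

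The sequences of Rpl26 and Gm15772 show how little separates them. The coding sequence of Rpl26 and Gm15772 are both 438 bases in GENCODE M21 (build GRCm38) and differ by C177T and T288C, counted from 1 at the A of the start codon with the base of Rpl26 first. Both windows of 31 bases are shown with the differing base in capitals. The first Rpl26 window spans an intron.
Rpl26 around C177T, chr11:68902436-68903202, plus strand: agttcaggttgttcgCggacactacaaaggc
Gm15772 around C177T, chr5:3236592-3236622, plus strand: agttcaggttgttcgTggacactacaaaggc
Rpl26 around T288C, chr11:68903283-68903313, plus strand: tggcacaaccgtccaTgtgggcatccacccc
Gm15772 around T288C, chr5:3236703-3236733, plus strand: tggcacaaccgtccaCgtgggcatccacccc
Rpl29 and Gm13841 are the pair with the largest ratio of copy to gene in CPM. They differ by C72A, C300T and T423C over 483 bases, and the first difference is shown.
Rpl29 around C72A, chr9:106430327-106430357, plus strand: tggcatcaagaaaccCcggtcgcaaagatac
Gm13841 around C72A, chr5:115802073-115802103, minus strand: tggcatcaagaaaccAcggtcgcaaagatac
Outside these positions a read from the coding sequence reads the same in gene and copy. Among 73 genes whose most counted copy could be lined up with the coding sequence, 50 had at most 5 mismatches and 14 had none. Of the 50-base stretches in the protein-coding transcripts of each gene, a median of 35.1% over the 81 genes also occurred in a transcript of another gene, and the share was 81.7% for Rpl24 and 0 for Rpl3l.

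This was not general. Of the 75 genes with copies, 35 had a smaller SD within groups once copies were added, and the median SD was 0.263 before and 0.260 after. Among the most variable genes the copies mattered more, since 6 had an SD above 0.5 before and 1 after. Rpl17 was at 85.5 CPM in Hyp_1 and 92.7 CPM in Hyp_4, and at 46.7 to 56.8 CPM in the other Hyp libraries. Its copy Rpl17-ps10 was at 43.1 and 43.7 CPM in those same libraries and at 68.7 to 83.3 CPM in the other Hyp libraries. Rpl17 had a log2 change of 0.23 ± 0.25 in Hyp against WT (SE; adjusted p = 0.726, edgeR's quasi-likelihood test), which did not pass the test. Rpl17 was described with its copy after both were seen. Rpl29, Rpl30, Rps27 and Rpl7a had SDs of log2 CPM within groups of 0.59 to 0.73, and 0.19 to 0.34 with copies added. Rps27a, which encodes a ubiquitin fusion, stayed variable (SD 0.73 and 0.62), with 122 CPM in Hyp_2, 109 CPM in WT_5 and 218 CPM in cFGF23-Hyp_3 against 32.3 to 75.2 CPM elsewhere. At the even end, Rpl15 differed by no more than 1.32-fold between its lowest and highest library.

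In Hyp against WT kidney, no ribosomal protein gene passed the test, and most members lay slightly lower in Hyp. Of the 81 genes, 0 were called in either direction by edgeR's quasi-likelihood test at an adjusted p of 0.05, where 0.342% of all genes were called (0.177% higher and 0.165% lower). A negative log2 change was found for 70 of 81 genes and a positive one for 11, or 13.6%, against 50.6% positive among all genes. Genes of the set are not independent within a library, so counts of signs, here and in the other comparisons, are descriptions. The median deviation of the 81 genes per library overlapped between the groups, at -0.09 to 0.20 in WT and -0.17 to 0.02 in Hyp. The median change was -0.11 (all genes 0.00), with -0.09 in the small and -0.12 in the large subunit. At an unadjusted p of 0.05, 3 members passed, all lower, against 13.4% of all genes in either direction. In the fit without cFGF23-Hyp_3, a library outside this comparison, 16 members were lower and 0 higher at that level. Of all genes, 10.9% were lower in that fit. Proximal tubule markers were lower in Hyp as well, with a median sum of 16400 CPM against 18900 CPM in WT, and their part in the tilt was not tested. The tilt was smaller without WT_4 (median -0.07) and with the length trend removed (median -0.06, 61 of 81 negative, where 48.6% of all genes were positive). In 3 members, Rpl3l, Rpsa and Rpl28, every Hyp library lay below every WT library, against 2.84% of all genes. In 0 members did every Hyp library lie above every WT library, against 2.91% of all genes.

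Rpl3l (ENSMUSG00000002500, chromosome 17, 24946794 to 24955117) had the lowest p of the set, on only 11 to 60 counts per library. It was at 1.80, 2.23, 1.99, 2.67 and 3.25 CPM in WT, at 0.75, 1.24, 0.98, 1.27 and 0.88 CPM in Hyp, and at 1.41, 1.05, 1.10, 0.76 and 2.24 CPM in cFGF23-Hyp. The WT and Hyp values did not overlap, and the cFGF23-Hyp values spanned both. The means were 2.39 ± 0.58 CPM in WT, 1.03 ± 0.23 in Hyp and 1.31 ± 0.57 in cFGF23-Hyp (SD, n = 5 each). The log2 fold change of Rpl3l, Hyp against WT, was -1.21 ± 0.27 (SE; adjusted p = 0.065 over all genes, edgeR) and just missed the threshold. It passed with DESeq2 (adjusted p = 0.00457), in the fit of WT and Hyp alone (adjusted p = 0.017), and without WT_5 and cFGF23-Hyp_5 (-1.08, adjusted p = 0.036). It also passed without cFGF23-Hyp_3, cFGF23-Hyp_4 or cFGF23-Hyp_5 (adjusted p = 0.037, 0.042 and 0.024), which are libraries outside this comparison. Rpl3l did not pass with limma-voom, other scalings or filters, the replicate block, or the length trend removed from all libraries. Nor did it pass when any single WT or Hyp library, cFGF23-Hyp_1 or cFGF23-Hyp_2 was left out. With WT_5, the highest WT library, placed in Hyp the change was -0.63 (adjusted p = 0.418). Over all alternatives run, its adjusted p ran from 0.00457 to 0.418. The authors' deposited table lists -1.23 with an adjusted p of 7e-04. The change of cFGF23-Hyp was 0.34 ± 0.29 against Hyp (adjusted p = 0.659) and -0.87 ± 0.27 against WT (adjusted p = 0.668), neither passing. Rpl3l has no copy in the tables and shares no 50-base stretch with another gene. Its partner Rpl3, which encodes the general form of the protein, was at 196 to 212 CPM in WT and 183 to 208 CPM in Hyp, with a log2 change of -0.05 (adjusted p = 0.907).

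Rpsa, which encodes a small subunit protein also studied as a laminin receptor, was at 403, 481, 454, 514 and 435 CPM in WT, at 368, 401, 365, 394 and 378 CPM in Hyp, and at 402, 392, 865, 416 and 408 CPM in cFGF23-Hyp. All Hyp values lay below all WT values, and 1 cFGF23-Hyp library lay far above the rest. The log2 change in Hyp was -0.26 ± 0.18 (SE; adjusted p = 0.551, edgeR). Without cFGF23-Hyp_3 it was -0.27 ± 0.06 (SE; adjusted p = 0.046), so that Rpsa and Rpl3l were called lower in that fit, where 1.22% of all genes were called lower and 0 members were called higher. In that fit 11 members were positive, against 50.4% of all genes. Rpl28 was at 201 to 232 CPM in WT and 161 to 197 CPM in Hyp (log2 change -0.20 ± 0.17, adjusted p = 0.640). Rps2 had a log2 change of -0.48 ± 0.18 (adjusted p = 0.272), Rpl7l1, a paralog of Rpl7, -0.22 ± 0.09 (adjusted p = 0.311), Rpl15 -0.14 ± 0.07 (adjusted p = 0.414) and Rpl21 -0.38 ± 0.21 (adjusted p = 0.458), none of which passed. Without cFGF23-Hyp_3, WT_5 and cFGF23-Hyp_5, Rpl3l, Rpsa, Rps2 and Rpl7l1 were called lower, where 5.22% of all genes were. The authors' deposited table calls 5 members lower (Rpl3l, Rpsa, Rps2, Rpl7l1 and Rpl28) and 0 higher, among 4.73% of its genes called in either direction.

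On the positive side, the members with the smallest p after Rpl17 were Rps28 (0.12 ± 0.19), Rpl26 (0.54 ± 0.99), Rps18 (0.10 ± 0.21) and Rpl24 (0.13 ± 0.34), as log2 change ± SE, each with an adjusted p of 0.81 or more. All but Rps28 have more counts in copies than in the gene. Rps6, whose protein is phosphorylated by the S6 kinases downstream of mTORC1, was at 267 ± 20.02 CPM in WT and 251 ± 11.4 CPM in Hyp (SD, n = 5 each; log2 change -0.09, adjusted p = 0.8). The log2 changes of the stalk genes Rplp0, Rplp1 and Rplp2 were -0.10, -0.13 and -0.15 (adjusted p = 0.715, 0.840 and 0.742).

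cFGF23-Hyp against Hyp asks what the vector did to the kidney of Hyp mice. No member passed the test here either, and with all libraries most members lay higher after the vector, but this direction rested on cFGF23-Hyp_3. Of the 81 genes, 0 were called (0% of all genes), 68 were positive (51.6% of all genes) and the median log2 change was 0.16 (all genes 0.01). At an unadjusted p of 0.05, 3 members were higher and 1 lower, against 10.4% of all genes in either direction. Groups without overlap were found for 0 members, against 0.874% of all genes higher and 0.963% lower. Without cFGF23-Hyp_3 the median turned to -0.03, with 31 positive and 50 negative (49.9% of all genes positive), and 0 members higher and 7 lower at an unadjusted p of 0.05 (5.2% of all genes were lower at that level). Still 0 members had groups without overlap, against 1.61% of all genes higher and 1.63% lower. With the length trend removed from all 15 libraries the median was 0.09, with 61 positive (52.3% of all genes). With cFGF23-Hyp_3 also left out the median was -0.01, with 36 positive (51.4% of all genes). No other single library turned the median, which ran from 0.13 to 0.23 without any other one.

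The members with the smallest p on the positive side included Rpl22l1 and Rplp1, whose values are given next. Rplp1 (ENSMUSG00000007892, chromosome 9, 61820566 to 61821824) was at 206, 223, 214, 238 and 238 CPM in Hyp and at 253, 227, 608, 243 and 228 CPM in cFGF23-Hyp. The groups overlap, and 1 library stood far above the rest. The log2 change was 0.48 ± 0.22 (SE; adjusted p = 0.473, edgeR) with all libraries and 0.09 without cFGF23-Hyp_3. Rpl22l1, a paralog of Rpl22, was at 15.1, 20.4, 17.4, 15.1 and 20.1 CPM in Hyp and at 19.9, 18.6, 44.6, 22.1 and 20.8 CPM in cFGF23-Hyp. Its log2 change was 0.51 ± 0.21 (SE; adjusted p = 0.416) and 0.21 without cFGF23-Hyp_3. Rpl22 itself was at 107 to 124 CPM in Hyp and 102 to 180 CPM in cFGF23-Hyp (log2 change 0.17). For Rpsa, Rpl7 and Rps7 the log2 changes were 0.38, 0.36 and 0.24 (adjusted p = 0.474, 0.479 and 0.490), and 0.09, 0.10 and 0.09 without cFGF23-Hyp_3. Rps27l, the paralog of Rps27, was at 64.8 to 85.8 CPM in Hyp and 68.4 to 154 CPM in cFGF23-Hyp, with log2 changes of 0.33 and 0.10. In each of these genes cFGF23-Hyp_3 was the highest of the 15 libraries.

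Some members had lower values in cFGF23-Hyp. Rps10 was at 2.66 to 3.70 CPM in Hyp and 1.16 to 2.94 CPM in cFGF23-Hyp, with a log2 change of -0.57 ± 0.25 (SE; adjusted p = 0.449, edgeR) and 15 to 81 counts per library. With its copies added the change was 0.20, the opposite sign. Rpl35a, mutated in some cases of Diamond-Blackfan anaemia in humans, likewise went from -0.26 to 0.27 with copies added. Rpl7a was at 63.6 to 136 CPM in Hyp and 29.99 to 111 CPM in cFGF23-Hyp (-0.62 ± 0.33, adjusted p = 0.507), Rps18 had -0.38 (adjusted p = 0.530) and Rpl38, which in mice affects the translation of Hox mRNAs, -0.18 (adjusted p = 0.712). With copies added to all members, 0 were called in any comparison, where 0.192% of all genes were called higher and 0.198% lower in Hyp against WT and 0% in both others. In Hyp against WT 77 of 81 then lay below 0 (50.6% of all genes lay above 0). In cFGF23-Hyp against Hyp 77 of 81 lay above 0 (51.5% of all genes), but 32 of 81 without cFGF23-Hyp_3 (48.7% of all genes), with a median of -0.02.

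**Figure D5:**
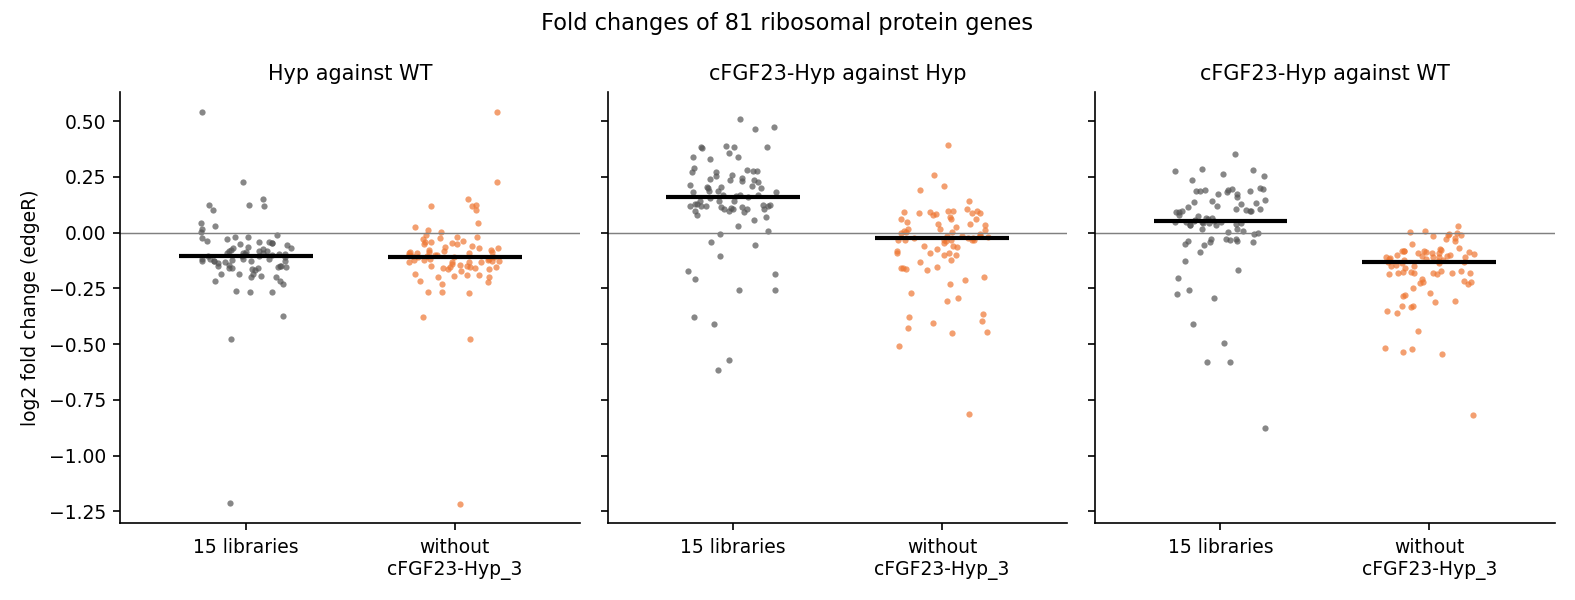
Log2 fold changes of the 81 ribosomal protein genes from edgeR in the 3 comparisons, with all 15 libraries (grey) and without cFGF23-Hyp_3 (orange). Black lines are medians. The median stays near -0.11 in Hyp against WT, and goes from 0.16 to -0.03 in cFGF23-Hyp against Hyp and from 0.05 to -0.13 in cFGF23-Hyp against WT.

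cFGF23-Hyp against WT shares its libraries with both other comparisons, so its values are not separate evidence. Of the 81 genes, 0 were called (0% of all genes), 57 were positive (54.5% of all genes) and the median was 0.05 (all genes 0.02). At an unadjusted p of 0.05, 4 members were lower and 0 higher, against 5.73% of all genes in either direction. These were Rpl3l, Rpl21, Rps10 and Rpl35a. Without cFGF23-Hyp_3 the median was -0.13, with 3 positive and 78 negative (50.5% of all genes positive), 0 members called, and 0 higher and 23 lower at an unadjusted p of 0.05 (6.47% of all genes were lower at that level). In that set of libraries Rplp2, Rps15, Rpl8 and Rpl36 lay lower in every cFGF23-Hyp library than in every WT library, against 1.58% of all genes, and 0 members lay higher in that way, against 1.11%. With all libraries 0 members had groups without overlap, against 0.247% of all genes higher and 0.241% lower. Rplp2, an acidic protein of the stalk, was at 85.2, 93.1, 90.7, 99.4 and 84.4 CPM in WT, at 79.6, 84.6, 76.5, 85.1 and 83.9 CPM in Hyp, and at 74.8, 72.7, 149, 78.7 and 66.3 CPM in cFGF23-Hyp. Its log2 change against WT was -0.04 ± 0.17 (SE; adjusted p = 0.999, edgeR) with all libraries, -0.31 ± 0.07 without cFGF23-Hyp_3 (adjusted p = 0.253), and -0.29 ± 0.07 without WT_5 and cFGF23-Hyp_5 as well, where it and Rpl35a were called lower (adjusted p = 0.029 and 0.044) among 1.80% of all genes. With all libraries, Rplp1, Rpl7, Rpl22l1, Rpl3 and Rpl34 had log2 changes of 0.19 to 0.35, and Rpl21, Rps10, Rpl35a and Rpl7a of -0.58 to -0.41, none passing.

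Genes that act with the ribosomal proteins were read from lists beside them. Fau, whose product is cut to release a small subunit protein, was at 188 ± 16.2 CPM in WT, 169 ± 11.6 in Hyp and 193 ± 71.8 in cFGF23-Hyp (SD, n = 5 each), with 321 CPM in cFGF23-Hyp_3. Rack1, a scaffold on the small subunit, was at 329 ± 28.2, 322 ± 7.58 and 357 ± 79.8 CPM. Neither Fau nor Rack1 passed in any comparison (adjusted p of 0.637 or more), and Rpl36al, with 127 counts in all, was below the filter. The 77 mitochondrial ribosomal protein genes, which build a separate ribosome, had the same signs as the cytosolic set. Their median log2 changes were -0.14 in Hyp against WT with 4 positive, 0.17 in cFGF23-Hyp against Hyp with 74 positive, and 0.03 in cFGF23-Hyp against WT with 48 positive (50.6%, 51.6% and 54.5% of all genes were positive). None were called (0 of 77) in any of them. Without cFGF23-Hyp_3 their medians were -0.14 with 4 positive, 0.02 with 43 positive and -0.13 with 0 positive, so the higher values in cFGF23-Hyp rested on that library here too. Mrps7 was called lower in Hyp against WT in that fit (-0.29, adjusted p = 0.0213, edgeR), where 1.22% of all genes were. The smallest p in the first comparison was that of Mrpl39 (-0.21 ± 0.07, adjusted p = 0.202).

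The 21 TOP translation factor genes had medians of -0.14, 0.14 and -0.01 in the same order of comparisons, and -0.14, 0.07 and -0.05 without cFGF23-Hyp_3. For Tpt1, a growth-related protein with a TOP mRNA, these changes were -0.24, 0.36 and 0.12 (adjusted p = 0.454, 0.385 and 0.999). The 30 other translation factor genes had medians of -0.11, 0.12 and 0.00, with Eif3j1 at -0.44 in Hyp against WT (adjusted p = 0.135) and Eif5b at 0.48 in cFGF23-Hyp against Hyp (adjusted p = 0.232). The 90 ribosome biogenesis genes had medians of -0.06, 0.04 and -0.03, and the 33 genes of the mTORC1 pathway -0.05, 0.05 and 0.04. In the latter, Sesn2, a stress-induced inhibitor of mTORC1, had a log2 change of 0.62 ± 0.17 in Hyp against WT (adjusted p = 0.135), and Myc -0.86 ± 0.28 in cFGF23-Hyp against WT (adjusted p = 0.707). Of the 12 stress kinase genes and targets, Eif2ak2, an interferon-induced kinase of eIF2, had the smallest p in cFGF23-Hyp against Hyp (0.98 ± 0.29, adjusted p = 0.264). No gene of these lists passed the test in any comparison of all 15 libraries.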

How the data were processed

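Whole kidney RNA of 15 mice (5 per group) was sequenced. Raw read counts per gene, as the authors deposited them in 1 table for WT and Hyp and 1 for Hyp and cFGF23-Hyp, were used here. The deposited normalized signal columns (20 of 20) were proportional to the counts of the same title within 1e-06 and were used for that check alone. The authors' deposited table of log2 fold changes, p-values and adjusted p-values was used where named, and the deposited gene length in bases for levels per kilobase. A further 20 per-sample columns were not used. The submitters' processing notes name build mm10. Not given in the sources used here: aligner, counter, strand setting and read length. Of 21950 genes, 0.556% have the same start in RefSeq GRCm38.p6, so gene coordinates are those of the deposited tables, and those beside sequences are GRCm38.

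Counts of 27122 genes in both tables were joined. The 299 without a name held 0.219% to 0.363% of counts and were left out. Totals were 13083190 to 21829906 counts per library. CPM used library sizes with TMM factors, with a prior count of 2 for log2 values. All 15 libraries entered 1 edgeR 4.0.16 quasi-likelihood fit in R 4.3.3 (filterByExpr, Benjamini-Hochberg adjustment, threshold 0.05), which was tested on simulated data. P-values measure the spread between the libraries of a group. Alternatives were DESeq2 1.42.0, limma-voom 3.58.1, other scalings and filters, fits of 2 groups, a replicate block, left-out libraries, WT_5 placed in Hyp, and a loess length trend (span 0.3) removed from each library. Adding copies, and leaving out cFGF23-Hyp_3 together with the length trend or with copies added, were chosen after seeing the data. Copies were pseudogenes or predicted genes with the protein's name in the deposited description or a pseudogene name. Shared stretches of 50 bases were sought in GENCODE M21 transcripts.

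Members and lists were chosen with earlier results of these data known. Named genes were those called, or else the 5 with the smallest p per direction, the 4 highest and 4 lowest per kilobase, paralogs with their partners, stalk genes, Rpsa, Rps6, and up to 3 genes per other list.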

Additional observations from a re-analysis of the deposited data

Results flagged for a closer look

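Over 37 measures and 111 groups of 5 values, 18 values stood apart from the other 4 of their group by Dixon's criterion (a gap of over 0.71 of the range), where chance flags about 1 in 20 groups. Of these, 15 were values of cFGF23-Hyp_3. Its share of counts in ribosomal protein genes was 1.8583% and the median log2 deviation of these genes 0.705. It was also apart for Rpl17 (122.2 CPM), Rpl22l1 (44.56 CPM), Rpl3 (354.5 CPM), Rpl34 (148.9 CPM), Rpl41 (577.9 CPM), Rpl7 (773.0 CPM) and Rplp0 (507.2 CPM). The same held for Rplp1 (607.8 CPM), Rplp2 (148.8 CPM), Rps15 (354.4 CPM), Rps6 (421.8 CPM), Rps7 (220.1 CPM) and Rpsa (865.2 CPM). All of these values were high. The other 3 were Rpl24 in Hyp_3 (1.533 CPM, high), Rpl7 in Hyp_2 (396.5 CPM, high) and Rpl7l1 in WT_5 (75.96 CPM, low). The flags are not separate results, since 33 of the 37 measures were genes of this set, some named for a small p. The rate of about 1 in 20 holds for independent groups.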

How the results depend on the processing

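The number of ribosomal protein genes called lower in Hyp against WT was 0 by edgeR. It was 1 with DESeq2 (1.1% of all genes lower), 1 with only the 2 groups compared (1.63%), 1 without WT_5 and cFGF23-Hyp_5 (0.73%), 4 without cFGF23-Hyp_3, WT_5 and cFGF23-Hyp_5 (5.22%), 2 with the length trend removed and cFGF23-Hyp_3 left out (1.24%), and 3 with copies added and cFGF23-Hyp_3 left out (1.2%). Among 81 genes such counts are near these shares or only a few genes above them. Leaving out 1 library gave 0 to 2 such genes. In cFGF23-Hyp against WT, 2 were called lower without the 3 libraries (1.8% of all genes), with a median log2 change of -0.19. Without 1 library the median ran from -0.136 to -0.067 in Hyp against WT. It ran from -0.025 to 0.229 when cFGF23-Hyp was compared with Hyp, and from -0.131 to 0.121 when it was compared with WT. With copies added, the log2 changes of Rps10 (0.203) and Rpl35a (0.265) in cFGF23-Hyp against Hyp, and of Rpl21 (0.205) in cFGF23-Hyp against WT, reversed, and with cFGF23-Hyp_3 also left out that of Rpl3 (-0.061) in the latter. Of 2443 values of named genes under alternatives, these 4 reversed and 18 passed the threshold that the fit of all libraries missed, with 170 turns of sign within 1 SE counted as no change. Over all genes, 54 were called in Hyp against WT by edgeR, 351 with DESeq2, 516 with only the 2 groups and 345 without cFGF23-Hyp_3. With replicate number as a block, 15 were called, 0 of them ribosomal protein genes, whose medians were -0.1, 0.121 and 0.034. The labels do not say that numbers pair the mice, and 4 of 15 pairs of same-numbered libraries had correlated deviations above 0.1. The cause of these differences was not tested. Genes with few counts, such as Rps10 and Rpl3l, are limited by depth, and the counts of genes with near-identical copies by assignment of reads.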
